A study of Prunus avium with 6 samples.

Results

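The genes described here are 95 predicted genes of sweet cherry (Prunus avium) that were abundant in leaf RNA and gave few reads in fruit RNA. Each had at least 30 unique reads, meaning reads that matched a single gene, in every leaf library and at least 1 over the fruit libraries. In addition, its share of the leaf reads was at least 4 times its share of the fruit reads, with reads and library sums added over the 3 libraries of a tissue. They were 95 of 43673 predicted genes, or 0.218%. Genes on the scaffolds Pav_sc0000877, Pav_sc000088x and Pav_sc000089x were left out by name, which removed 3 genes that met the thresholds. The genes were thus chosen by their leaf and fruit reads, so their levels in the tissues are a description and carry no test. The tests below compare cultivars.

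RNA was sequenced by 454 pyrosequencing from leaves and from fruits at commercial maturity of ‘Bing’, ‘Lapins’ and ‘Rainier’, with 1 library for each cultivar and tissue. The 6 libraries came from the 2012 season. The sites were Quillota for ‘Bing’, Los Andes for ‘Lapins’ and San Francisco de Mostazal for ‘Rainier’. Each cultivar had its own site, so cultivar and site cannot be told apart, and the labels do not say whether several trees were pooled. The labels name no treatment in any group. Unique reads summed to 89009, 70058 and 70196 in ‘Bing’, ‘Lapins’ and ‘Rainier’ leaf and to 116264, 74371 and 83953 in the fruits of the same cultivars. A count of 0 allows up to 3 reads, which is 0.258 to 0.428 per 10000 reads of these libraries. From the annotation used here, 11 genes for chloroplast functions were taken by chosen words in their descriptions, all on the scaffolds left out. They are not every gene described as chloroplastic, since Pav_sc0000890.1_g060.1.mk is counted below under seed or flower. The 11 are summed first. Their summed level was 22.5 to 29.9 reads per 10000 in leaf and 3.34 to 6.36 in fruit, with 2 of the 11 at 0 in every leaf and 4 at 0 in every fruit. Not all were clearly higher in leaf. The gene described as malate chloroplastic, Pav_sc0000877.1_g830.1.mk, had 12, 7 and 6 reads in ‘Bing’, ‘Lapins’ and ‘Rainier’ leaf and 21, 10 and 8 in fruit. Its share was higher in fruit in each cultivar. Pav_sc0000886.1_g120.1.mk, a short-chain dehydrogenase TIC, had 26, 15 and 21 in leaf and 35, 13 and 16 in fruit. The fruit libraries were deeper, so its share was near even in ‘Bing’ and higher in leaf in ‘Lapins’ and ‘Rainier’. Of 6 genes described for seed or flower organs, 3 were at 0 in all libraries, and the others summed to 0.143 to 0.562 per 10000 in leaf and 0.269 to 1.81 in fruit.

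A leaf is a photosynthetic organ, and a large part of its messenger RNA codes for the light-harvesting complexes, the photosystems, the carbon-fixing enzymes of the chloroplast and the enzymes that protect them. A ripe cherry has lost most of its chlorophyll and stores sugars, acids and pigments, so the genes that lead its RNA are in the main other ones. In bulk RNA, fewer cells of a type and less RNA per cell cannot be told apart. None of the 95 genes has a description in the 581 annotation rows held here. No gene of these data matched the reference gene table, which uses other identifiers. The paper reports a functional annotation of the predicted genes, so a description missing here does not mean a gene without annotation. The 95 genes are therefore given by identifier, without a name or a function. The only described genes near them are the 3 left out by name. The first, Pav_sc0000877.1_g910.1.mk, is described as chlorophyll a-b binding, a family that carries the pigments of the light-harvesting antenna. It had 57, 48 and 55 reads in ‘Bing’, ‘Lapins’ and ‘Rainier’ leaf and 0, 0 and 1 in the fruits. The geranylgeranyl diphosphate gene Pav_sc0000877.1_g840.1.mk, of isoprenoid metabolism, had 35, 39 and 50 reads in leaf and 5, 3 and 1 in fruit. Pav_sc0000877.1_g1130.1.mk, described by the words ribulose-phosphate and chloroplastic, had 30, 49 and 53 reads in leaf and 5, 5 and 1 in fruit. These 3 met the same thresholds as the 95 genes, which fixed their order of tissues, and nothing about the function of the 95 follows from them.

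The 95 genes made up 14.6% of the unique reads of ‘Bing’ leaf (95% Clopper-Pearson interval 14.3 to 14.8%), 15.6% in ‘Lapins’ leaf (15.3 to 15.8%) and 18.4% in ‘Rainier’ leaf (18.2 to 18.7%). The fruit libraries held 0.762% (‘Bing’), 0.914% (‘Lapins’) and 0.727% (‘Rainier’) of their reads in these genes. These intervals, like the others on reads, cover counting error only. Over the tissues the genes held 36814 leaf reads and 2176 fruit reads, and their summed leaf share was 20.3 times the fruit share. ‘Rainier’ leaf had the highest summed share of the leaves, and a good part of that came from the most read gene. Without it the shares were 12.6%, 12.9% and 14.2% in ‘Bing’, ‘Lapins’ and ‘Rainier’ leaf, and the summed ratio was 16.7. Among all genes of a library, 7 of the 10 most read genes of ‘Bing’ leaf belonged to the 95, against 5 in ‘Lapins’ and 6 in ‘Rainier’ leaf. Of the 100 most read genes, 51, 49 and 57 did.

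Of 205 genes on the scaffolds kept that reached 30 reads in every leaf, 95 passed the ratio of 4, 93 had a lower ratio and 17 had no fruit read. The 93 genes serve below as genes of like leaf abundance, and had 188 leaf reads at the median against 248 in the 95. Those 93 genes held 9.50%, 10.2% and 9.86% of the reads in ‘Bing’, ‘Lapins’ and ‘Rainier’ leaf and 8.63%, 11.8% and 9.91% in the fruits.

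**Figure D1:**
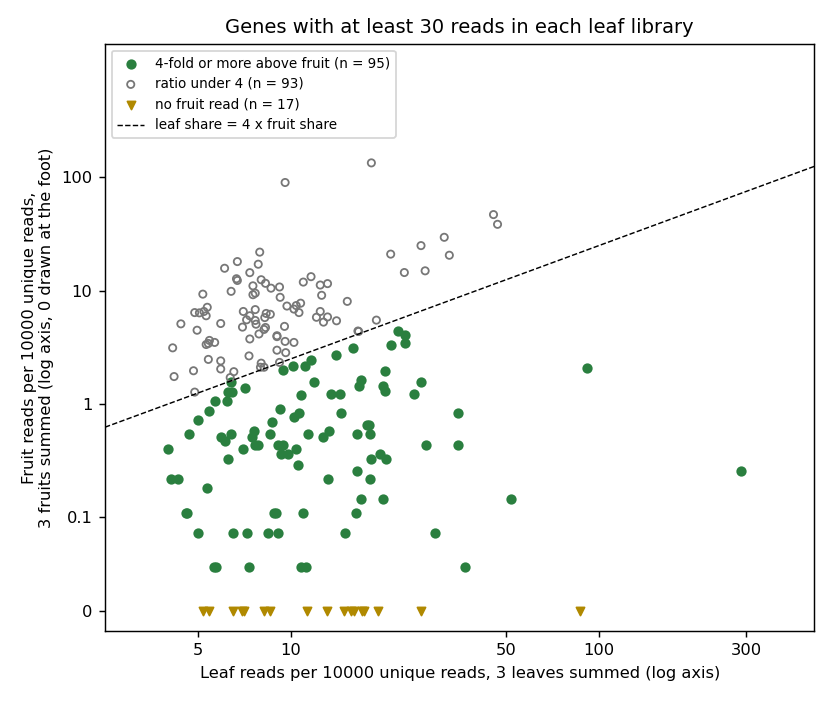
Reads per 10000 unique reads over the 3 leaves (x axis, log scale) and over the 3 fruits (y axis, log scale, 0 drawn at the foot) for the 205 genes with at least 30 reads in each leaf library. The 95 genes described here (filled circles) lie below the dashed line of a 4-fold ratio because the line chose them, while the 93 other genes with fruit reads lie above it and the 17 with none lie at the foot.

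The leaf to fruit ratio of the 95 genes ran from 4.09 to 1133 with a median of 20.3. It was at least 10 in 74 genes, at least 50 in 29 and at least 100 in 16. Leaf reads summed to 92 to 6623 per gene (median 248), and fruit reads to 1 to 120 (median 14). The lower end of the fruit counts is thin. There were 6 genes with a single fruit read, 19 with at most 3 and 36 with at most 10, so their ratios are known only within wide limits. At the other end, 26 genes had 30 fruit reads or more.

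The most read gene was Pav_sc0001488.1_g320.1.mk, with a coding length of 552 bases. It had 1742, 1865 and 3016 reads in ‘Bing’, ‘Lapins’ and ‘Rainier’ leaf and 2, 2 and 3 in the fruits. That is a level of 297 ± 120 reads per 10000 across the leaves, against 0.266 ± 0.0927 across the fruits (SD over the 3 cultivars, n = 3 each). It ranked first among all genes in each leaf library and carried 18.0% of the leaf reads of the 95 genes. The leaf share was 1138 times the fruit share in ‘Bing’, 990 times in ‘Lapins’ and 1202 times in ‘Rainier’, and 1133 times over the summed libraries, the highest ratio of the 95 (95% interval 550 to 2820). None of its 6630 reads in the 6 libraries was non-specific, that is, matched to a further gene as well.

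Next by reads stood Pav_sc0000563.1_g110.1.mk, with 617, 789 and 698 reads in ‘Bing’, ‘Lapins’ and ‘Rainier’ leaf and 24, 14 and 19 in the fruits. It was steady across the fruits, at 2.07 ± 0.190 per 10000, and less so across the leaves, at 93.8 ± 22.2 (SD, n = 3 each). The leaf to fruit ratio was 44.2 (34.0 to 58.6). Pav_sc0000175.1_g270.1.mk had 506, 315 and 365 reads in leaf and 4, 0 and 0 in fruit. On the same scaffold, Pav_sc0000175.1_g100.1.mk had 213, 333 and 295 reads in leaf and a single read in fruit, in ‘Bing’. The ratios of 355 (138 to 1306) and 1007 (180 to 39832) rest on those 4 reads and that 1 read. Read counts in leaf exceeded those in fruit by far in every cultivar for these genes, and the leaf libraries differed among themselves by less than a factor of 2.

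Among the other genes of the 10 with most leaf reads, fruit reads varied more. Pav_sc0000348.1_g820.1.mk had 169, 238 and 265 reads in ‘Bing’, ‘Lapins’ and ‘Rainier’ leaf and 0, 2 and 0 in fruit, a ratio of 402 (111 to 3330). For Pav_sc0001080.1_g090.1.mk the counts were 343, 216 and 242 in leaf and 5, 4 and 3 in fruit, a ratio of 79.9 (45.5 to 155). Pav_sc0000044.1_g440.1.mk had 171, 223 and 238 in leaf and 3, 4 and 5 in fruit, a ratio of 63.1 (35.9 to 123). In each of these 3 genes no fruit library had more than 5 reads. Pav_sc0000069.1_g840.1.mk had 385, 234 and 179 reads in leaf and 15, 5 and 3 in fruit, with ‘Bing’ the highest in both tissues (ratio 41.6, 27.5 to 65.9). Pav_sc0000830.1_g180.1.mk had 186, 222 and 168 reads in leaf and 7, 18 and 9 in fruit (ratio 20.3, 14.4 to 29.6). Pav_sc0001040.1_g480.1.mk, with 223, 249 and 137 reads in leaf and 12, 22 and 9 in fruit, had the lowest ratio of the 10, at 17.0 (12.4 to 23.7). ‘Lapins’ was highest in both tissues for these last 2 genes. Together the 10 genes held 40.3% of the leaf reads of the 95.

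**Figure D2:**
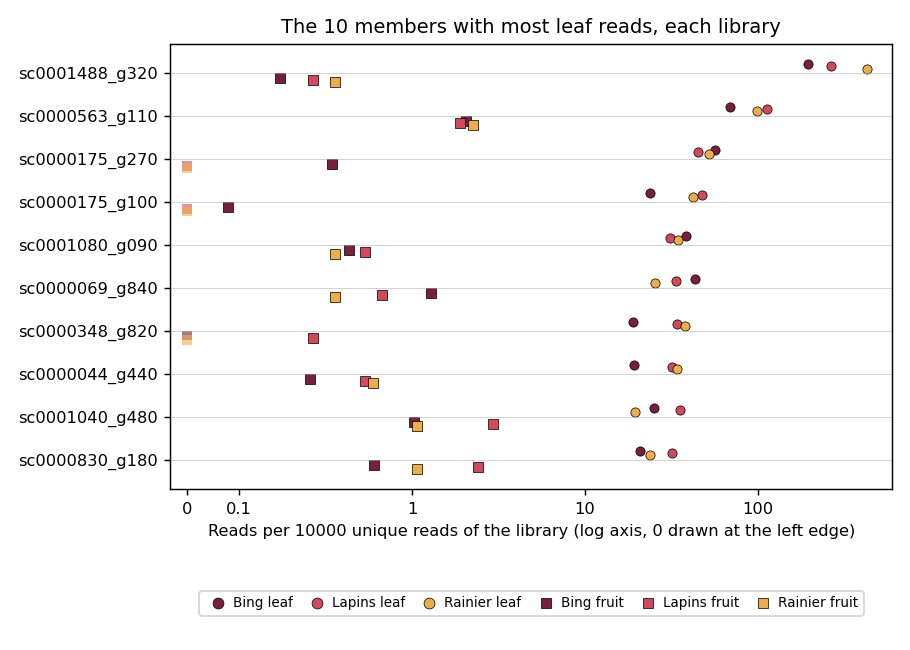
Reads per 10000 unique reads (x axis, log scale, 0 drawn at the left edge) of the 10 genes with most leaf reads in each leaf library (circles) and fruit library (squares), coloured by cultivar. Every leaf library lies to the right of every fruit library, from 297 ± 120 in leaf and 0.266 ± 0.0927 in fruit for the first gene to 25.5 ± 5.56 in leaf and 1.36 ± 0.944 in fruit for the last (mean ± SD, n = 3 each).

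Levels of different genes can be set side by side only per length. In RPKM, reads scaled to gene length and to the mapped reads of the library, the mean over the leaves ran from 148 to 52698 with a median of 947, against a median of 692 and a highest value of 10752 in the 93 genes of like abundance. Pav_sc0001488.1_g320.1.mk stood first with 34770, 47126 and 76197 RPKM in ‘Bing’, ‘Lapins’ and ‘Rainier’ leaf, above every leaf value of every other of the 95. The second gene, Pav_sc0000563.1_g110.1.mk, had 4802, 7723 and 6831 RPKM. These overlapped those of the third, Pav_sc0000095.1_g450.1.mk, with 2309, 5546 and 7006 RPKM. The next in order, Pav_sc0000175.1_g270.1.mk at 4258 ± 504 RPKM and Pav_sc0000130.1_g940.1.mk at 4000 ± 1096 RPKM (SD, n = 3), differed by less than their spread. Below the first gene the order of neighbours was therefore not fixed by these libraries. Short genes gained places in this order, since Pav_sc0000130.1_g940.1.mk stood only at rank 41 by reads, and with 297 bases was the shortest of the 95.

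Few fruit reads did not mean none. Of the 95 genes, 83, 87 and 77 had a read in ‘Bing’, ‘Lapins’ and ‘Rainier’ fruit, and 32, 22 and 20 reached 10 reads. There were 67 genes with reads in all 6 libraries, 18 with a 0 in a single fruit and 10 with fruit reads from a single fruit. Among those 10 genes the fruit was ‘Bing’ for 4, ‘Lapins’ for 5 and ‘Rainier’ for 1. The highest fruit counts of a gene were 68, 42 and 37 in ‘Bing’, ‘Lapins’ and ‘Rainier’. The highest fruit sum belonged to Pav_sc0000143.1_g500.1.mk, with 362, 78 and 73 reads in leaf and 68, 24 and 28 in fruit. Pav_sc0000129.1_g1420.1.mk had 112 fruit reads over the cultivars, and these 2 genes alone passed 100.

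The order of tissues was the same within each cultivar. The rule used these same reads, so that order was largely set by the choice of genes and is a description. All 95 genes had a higher share in leaf than in fruit in each cultivar, and 80 had a ratio of at least 4 in each. A ratio under 4 was seen for 3 genes in the ‘Bing’ libraries, for 7 in those of ‘Lapins’ and for 7 in those of ‘Rainier’. In ‘Bing’ the lowest was 3.52, for Pav_sc0000731.1_g100.1.br. The ‘Lapins’ libraries gave 2.06 for Pav_sc0001280.1_g440.1.mk and those of ‘Rainier’ 2.39 for Pav_sc0000567.1_g740.1.mk.

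Around the threshold the genes differed little. Just inside it stood Pav_sc0001280.1_g440.1.mk, with 60, 33 and 54 reads in leaf and 7, 17 and 19 in fruit and a ratio of 4.09 (2.90 to 5.89). Pav_sc0000544.1_g340.1.mk and Pav_co4022365.1_g010.1.br followed, both at 4.73. Just outside it stood Pav_sc0006499.1_g050.1.mk at 3.95 (2.97 to 5.31), Pav_sc0004467.1_g020.1.mk at 3.88 and Pav_sc0000326.1_g110.1.mk at 3.83. The intervals of the genes on either side overlap. The requirement of a fruit read also left out genes that were as abundant in leaf. Pav_sc0000554.1_g470.1.mk had 666, 691 and 634 reads in ‘Bing’, ‘Lapins’ and ‘Rainier’ leaf and none in fruit. Against a floor of 3 reads over the 3 fruits, its leaf share was at least 795-fold higher, and the exact 95% interval begins at 646. Pav_sc0000184.1_g170.1.mk was at least 243-fold and Pav_sc0001461.1_g070.1.mk at least 175-fold higher by the same floor, with intervals that begin at 197 and 142.

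Several features were not used by the rule. Coding lengths of the 95 genes ran from 297 to 6585 bases with a median of 1182, against 1092 in the 93 genes of like abundance, 1071 in the 17 without fruit reads and 1065 over the 16916 genes with any read. The longest were Pav_sc0000638.1_g720.1.mk with 6585, Pav_sc0000608.1_g020.1.mk with 4950 and Pav_sc0000062.1_g610.1.mk with 4689 bases. After Pav_sc0000130.1_g940.1.mk, the shortest were Pav_co4060979.1_g010.1.mk with 345 and Pav_sc0000130.1_g600.1.mk with 399. The identifiers of 92 of the 95 end in mk, a suffix of the gene models that 54.3% of all genes carry, but 87 of the 93 genes of like abundance carry it too.

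The 95 genes lay on 83 scaffolds. Only 10 scaffolds held more than 1 of them, 22 genes in all, and the most on a scaffold was 4, on Pav_sc0000095. Those 4 did not share a pattern. Pav_sc0000095.1_g910.1.mk had 155, 144 and 147 reads in ‘Bing’, ‘Lapins’ and ‘Rainier’ leaf, an even level. Pav_sc0000095.1_g450.1.mk, with 88, 167 and 211 reads, and Pav_sc0000095.1_g790.1.mk, with 53, 71 and 252, were lowest in ‘Bing’ leaf. Pav_sc0000095.1_g510.1.mk, with 60, 30 and 35 reads in leaf, was highest there. Only a single pair had consecutive gene numbers. Of this pair, Pav_sc0000567.1_g740.1.mk had 50, 50 and 48 reads in leaf and 3, 8 and 24 in fruit, and Pav_sc0000567.1_g750.1.mk had 63, 30 and 51 in leaf and 11, 12 and 12 in fruit. The first varied in fruit and hardly in leaf, whereas the second was even in fruit.

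Near-identical copies can share reads. Non-specific reads, those with more than 1 matching gene, were 481 of 39471 total reads of the 95 genes, or 1.22%, and only 13 of the genes had any. In 3 genes they were 5% or more. Pav_sc0002206.1_g310.1.mk had 310 non-specific reads of 807 (38.4%), Pav_sc0001925.1_g220.1.mk 75 of 228 (32.9%) and Pav_sc0000206.1_g230.1.mk 55 of 336 (16.4%). The values of these 3 genes are uncertain, since reads that their copies share cannot be assigned.

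The 3 leaf libraries were then compared in pairs, which asks how evenly the 95 genes were read in leaves of different cultivars. The proportion test of Kal, a normal approximation, was used. Calls needed p at or under 0.05, shares that differed by a factor of 2 or more, and 10 reads or more in 1 library of the pair. With 1 library per cultivar this test compares the libraries and covers counting error only. The minimum of 30 reads in every leaf also trims the differences that can be seen. Most of the 95 genes were even. The highest leaf share of a gene was 1.60 times its lowest at the median (1.06 to 6.03), against 1.55 in the 93 genes of like abundance, and 23 of the 95 and 19 of the 93 reached a factor of 2. The highest share fell in ‘Bing’ leaf for 25 genes, in ‘Lapins’ leaf for 25 and in ‘Rainier’ leaf for 45, against 33, 34 and 26 of the 93.

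Calls in leaf were made for 23 of the 95 genes in at least 1 pair, 22 of them also at an adjusted p (Benjamini-Hochberg over all genes with a read in the pair) of at most 0.05. Fisher's exact test gave the same counts in each pair and direction. Between ‘Bing’ and ‘Lapins’ 7 were higher in ‘Bing’ and 3 in ‘Lapins’, where 12.7% and 10.8% of all genes with at least 10 reads in 1 library were called (2.83% and 3.32% at an adjusted p). Of the 205 genes with 30 reads in every leaf, 5.85% and 4.39% were. Between ‘Bing’ and ‘Rainier’ 5 were higher in ‘Bing’ (background 13.4%, 2.05% at an adjusted p, and 5.37% of the 205) and 13 in ‘Rainier’ (9.98%, 3.22% at an adjusted p, and 11.7% of the 205). With TMM library sizes, which shift the log2 ratio of this pair by 0.13, this split was 3 and 14. Between ‘Lapins’ and ‘Rainier’ 2 were higher in ‘Lapins’ (11.3%, 1.02% at an adjusted p, and 0.976% of the 205) and 6 in ‘Rainier’ (9.82%, 1.58% at an adjusted p, and 5.85% of the 205), of which Pav_sc0002181.1_g190.1.mk missed the adjusted threshold (0.0533). The shares of the 95 called, 2.11% to 13.7%, were near those of the 205, which include the 95. Of the 93 genes of like abundance, none of which is among the 95, 5 were called in each direction in the first pair. In the second pair 6 of the 93 were higher in ‘Bing’, and 13.7% of the 95 against 7.53% of the 93 (7 genes) in ‘Rainier’. In the third 0 were higher in ‘Lapins’ and 6 in ‘Rainier’. The differences between the 95 and the 93 were not tested, and nothing particular to the 95 genes is read from these counts.

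The patterns over the 3 leaves that follow are given without a count in other genes, so their numbers are not read as particular to the 95. Genes higher in ‘Bing’ leaf than in both other leaves numbered 4. The clearest was Pav_sc0000143.1_g500.1.mk, with 40.7, 11.1 and 10.4 reads per 10000 in ‘Bing’, ‘Lapins’ and ‘Rainier’ leaf. Its share in ‘Bing’ was 3.65 times that in ‘Lapins’ (95% interval 2.85 to 4.73, adjusted p = 3.74e-25) and 3.91 times that in ‘Rainier’ (3.03 to 5.10, adjusted p = 6.61e-27). In fruit it was also highest in ‘Bing’, at 5.85, 3.23 and 3.34 per 10000, but these ratios of 1.81 and 1.75 were under the factor of 2 and were not called. Pav_sc0006061.1_g110.1.mk had 178, 48 and 35 reads in leaf, with ratios of 2.92 (2.11 to 4.10) over ‘Lapins’ and 4.01 (2.78 to 5.94) over ‘Rainier’, and 6, 3 and 6 in fruit. Pav_sc0000981.1_g210.1.mk had 126, 42 and 48 reads in leaf and 3, 5 and 4 in fruit, and Pav_sc0001580.1_g270.1.mk had 269, 97 and 99 in leaf and 10, 11 and 15 in fruit. The last 2 lay near the factor of 2. With TMM library sizes the ratio over ‘Rainier’ of Pav_sc0001580.1_g270.1.mk became 1.96 in place of 2.14 (1.70 to 2.73) and that of Pav_sc0000981.1_g210.1.mk 1.89 in place of 2.07, and neither was then called. Apart from the first gene, all were highest in ‘Bing’ in leaf and, per 10000 reads, in another cultivar in fruit.

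Another 3 genes were lower in ‘Bing’ leaf than in both others. Pav_sc0001545.1_g130.1.mk had 5.95, 17.3 and 24.4 reads per 10000 in ‘Bing’, ‘Lapins’ and ‘Rainier’ leaf, a share in ‘Bing’ of 0.345 times that in ‘Lapins’ (0.245 to 0.480, adjusted p = 1.07e-08) and 0.244 times that in ‘Rainier’ (0.176 to 0.334, adjusted p = 7.51e-19). Fruit gave 1, 0 and 1 reads of it. Pav_sc0000095.1_g450.1.mk had 9.89, 23.8 and 30.1 per 10000 in leaf, a ‘Bing’ to ‘Lapins’ ratio of 0.415 (0.317 to 0.540), and 4, 2 and 3 reads in fruit. Pav_sc0000731.1_g100.1.br had 35, 58 and 104 reads in leaf and the opposite order in fruit, 13, 2 and 0. For the first 2 genes the fruits were alike within their few reads, while for the last the order of cultivars turned round between leaf and fruit.

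‘Rainier’ leaf stood above both other leaves in 3 genes and below them in 1. Pav_sc0000095.1_g790.1.mk had the widest range of the 95, with 5.95, 10.1 and 35.9 reads per 10000 in ‘Bing’, ‘Lapins’ and ‘Rainier’ leaf. Its ‘Bing’ to ‘Rainier’ ratio was 0.166 (0.121 to 0.224, adjusted p = 4.14e-38) and its ‘Lapins’ to ‘Rainier’ ratio 0.282 (0.214 to 0.369, adjusted p = 3.32e-20), with 2, 4 and 1 reads in fruit. Pav_sc0000205.1_g430.1.mk had 78, 32 and 132 reads in leaf and 3, 2 and 3 in fruit, and Pav_sc0003921.1_g050.1.mk had 73, 44 and 131 in leaf and 0, 0 and 1 in fruit. ‘Rainier’ leaf was the highest in all 3, and the fruits showed no such gap at their depth. Pav_sc0001191.1_g120.1.mk was the gene below, with 110, 93 and 32 reads in leaf and 0, 17 and 4 in fruit. The most read gene, Pav_sc0001488.1_g320.1.mk, was higher in ‘Rainier’ than in ‘Bing’ leaf, with a ‘Bing’ to ‘Rainier’ ratio of 0.456 (0.429 to 0.483, adjusted p = 5.16e-159). The narrow interval reflects its depth, not a spread between trees.

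‘Lapins’ leaf was below both others in 2 genes and above both in none. Pav_sc0000638.1_g720.1.mk had 147, 34 and 74 reads in ‘Bing’, ‘Lapins’ and ‘Rainier’ leaf and 24, 17 and 19 in fruit, a ‘Bing’ to ‘Lapins’ ratio of 3.40 in leaf (2.33 to 5.10, adjusted p = 7.01e-09). Pav_sc0001825.1_g250.1.mk had 197, 62 and 154 reads in leaf and 6, 5 and 7 in fruit. Pav_sc0000206.1_g230.1.mk, with 91, 115 and 42 reads in leaf, was called between ‘Lapins’ and ‘Rainier’ (ratio 2.74, 1.91 to 4.01), with the limit of its shared reads given above. At the even end, Pav_sc0000747.1_g600.1.mk had 18.0 ± 0.508 reads per 10000 over the leaves (SD, n = 3), a factor of 1.06 between the highest and the lowest.

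**Figure D3:**
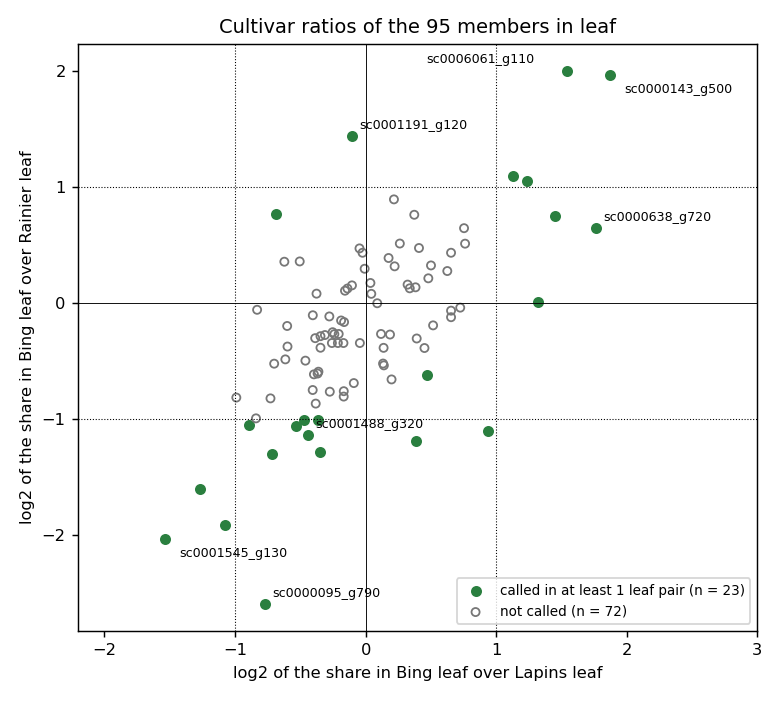
Log2 ratio of the leaf share in ‘Bing’ over ‘Lapins’ (x axis) and in ‘Bing’ over ‘Rainier’ (y axis) for the 95 genes, filled where a gene was called in at least 1 leaf pair (23 genes). Most genes lie within the dotted lines of a 2-fold ratio, with Pav_sc0000143.1_g500.1.mk and Pav_sc0006061.1_g110.1.mk at the upper right and Pav_sc0000095.1_g790.1.mk at the foot. Both axes use the ‘Bing’ leaf library, so the points lean along the diagonal by construction.

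In fruit few of the 95 genes had 10 reads in 1 library of a pair. The same test could use 37 between ‘Bing’ and ‘Lapins’, 35 between ‘Bing’ and ‘Rainier’, and 26 between ‘Lapins’ and ‘Rainier’. Between ‘Bing’ and ‘Lapins’ 6 were higher in ‘Bing’ (background 21.4%) and 9 in ‘Lapins’ (14.2%). At an adjusted p these were 1 (7.3%) and 7 (8.79%), and with TMM library sizes, a shift of 0.10 on the log2 scale, 3 and 10. Between ‘Bing’ and ‘Rainier’ 8 were higher in ‘Bing’ (20.6%) and 4 in ‘Rainier’ (12.4%), which became 3 (6.32%) and 3 (7.15%) at an adjusted p and 5 and 6 with TMM library sizes, a shift of 0.18. Between ‘Lapins’ and ‘Rainier’ 6 were higher in ‘Lapins’ (8.77%) and 2 in ‘Rainier’ (7.09%), or 4 and 3 with TMM library sizes. None of these 8 kept an adjusted p of at most 0.05 (1.54% and 0.513%). Fisher's exact test gave 3 and 9, 7 and 4, and 5 and 1 in the 3 pairs. In all, 22 genes were called in a fruit pair and 11 of them at an adjusted p. The balance turned round with the scaling between ‘Bing’ and ‘Rainier’ and kept its direction in the other pairs. Without adjustment, 16.2% of the usable genes of the 95 were higher in ‘Bing’ and 24.3% in ‘Lapins’. Among the 93 genes of like leaf abundance these were 4.30% and 29.0%. For ‘Bing’ and ‘Rainier’ the shares were 22.9% and 11.4% against 7.53% and 18.3%. For ‘Lapins’ and ‘Rainier’ they were 23.1% and 7.69% against 6.52% and 1.09%. The 93 hold more fruit reads, and these differences were not tested.

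Of the genes called higher in ‘Bing’ fruit, the most read there was Pav_sc0001461.1_g700.1.mk, with 211, 147 and 127 reads in ‘Bing’, ‘Lapins’ and ‘Rainier’ leaf and 67, 9 and 16 in fruit. The fruit share in ‘Bing’ was 4.76 times that in ‘Lapins’ (2.36 to 10.9, adjusted p = 0.000106) and 3.02 times that in ‘Rainier’ (1.73 to 5.59, adjusted p = 0.00176). Its leaf level was even, with 20.9 ± 2.81 per 10000 (SD, n = 3). Pav_sc0002206.1_g310.1.mk had 31, 8 and 1 unique reads in fruit, a ‘Bing’ to ‘Rainier’ ratio of 22.4 (3.73 to 912, adjusted p = 0.000639), while its ratio to ‘Lapins’ of 2.48 did not keep an adjusted call (0.195). In ‘Bing’ fruit, a further 23 of its reads were non-specific. Pav_sc0000095.1_g510.1.mk had 18, 5 and 1 reads in fruit, a ‘Bing’ to ‘Rainier’ ratio of 13.0 (2.05 to 542, adjusted p = 0.0353). The single ‘Rainier’ read behind the last 2 ratios leaves their upper limits wide. Pav_sc0003681.1_g050.1.mk, with 26, 6 and 8 reads, had a ‘Bing’ to ‘Lapins’ ratio of 2.77 and an adjusted p of 0.201.

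Other genes were lowest in ‘Bing’ fruit. Pav_sc0000760.1_g010.1.mk had 257, 174 and 109 reads in ‘Bing’, ‘Lapins’ and ‘Rainier’ leaf and 19, 42 and 33 in fruit, which is 1.63, 5.65 and 3.93 fruit reads per 10000. The fruit ratio of ‘Bing’ to ‘Lapins’ was 0.289 (0.159 to 0.509, adjusted p = 0.000144) and that of ‘Bing’ to ‘Rainier’ 0.416 (0.223 to 0.753, adjusted p = 0.0449). So the cultivar with most leaf reads of this gene had the fewest in fruit. Pav_sc0001191.1_g120.1.mk had no read in ‘Bing’ fruit and 17 in ‘Lapins’ fruit, which puts ‘Lapins’ at least 8.86-fold higher when ‘Bing’ is set to a floor of 3 reads, with the counting error of the 17 reads left out (lower limit of the exact 95% interval 6.45, adjusted p = 2.69e-05). Its ‘Lapins’ to ‘Rainier’ ratio of 4.80 (1.56 to 19.6) did not keep an adjusted call (0.192). Pav_sc0000557.1_g1170.1.mk, with 18, 33 and 24 reads, had a ‘Bing’ to ‘Lapins’ ratio of 0.349 (0.185 to 0.638, adjusted p = 0.00683). Pav_sc0001280.1_g440.1.mk, with 7, 17 and 19 reads, had a ‘Bing’ to ‘Rainier’ ratio of 0.266 (0.0945 to 0.661, adjusted p = 0.0372). ‘Bing’ fruit was the lowest in each of these 4 genes, and it was also the deepest fruit library.

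‘Rainier’ fruit was highest for Pav_sc0000567.1_g740.1.mk, at 0.258, 1.08 and 2.86 reads per 10000 in ‘Bing’, ‘Lapins’ and ‘Rainier’ fruit, from 3, 8 and 24 reads. The ‘Bing’ to ‘Rainier’ ratio was 0.0903 (0.0174 to 0.297, adjusted p = 8.05e-05), while the leaves had 50, 50 and 48 reads. In the pair of ‘Lapins’ and ‘Rainier’ the calls without adjustment included Pav_sc0001040.1_g480.1.mk with 22 against 9 reads (ratio 2.76), Pav_sc0000357.1_g120.1.mk with 36 against 20 (2.03) and Pav_co4022365.1_g010.1.br with 10 against 24 (0.470). Their adjusted p ran from 0.429 to 0.591. Called in both tissues were 3 genes, Pav_sc0000206.1_g230.1.mk, Pav_sc0000731.1_g100.1.br and Pav_sc0001191.1_g120.1.mk. Of the genes described here, 38 had at least 10 reads in a fruit library, and the others could not be called in fruit. The overlap was not counted in other genes or tested, so it does not show whether leaf and fruit differences go together.

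**Figure D4:**
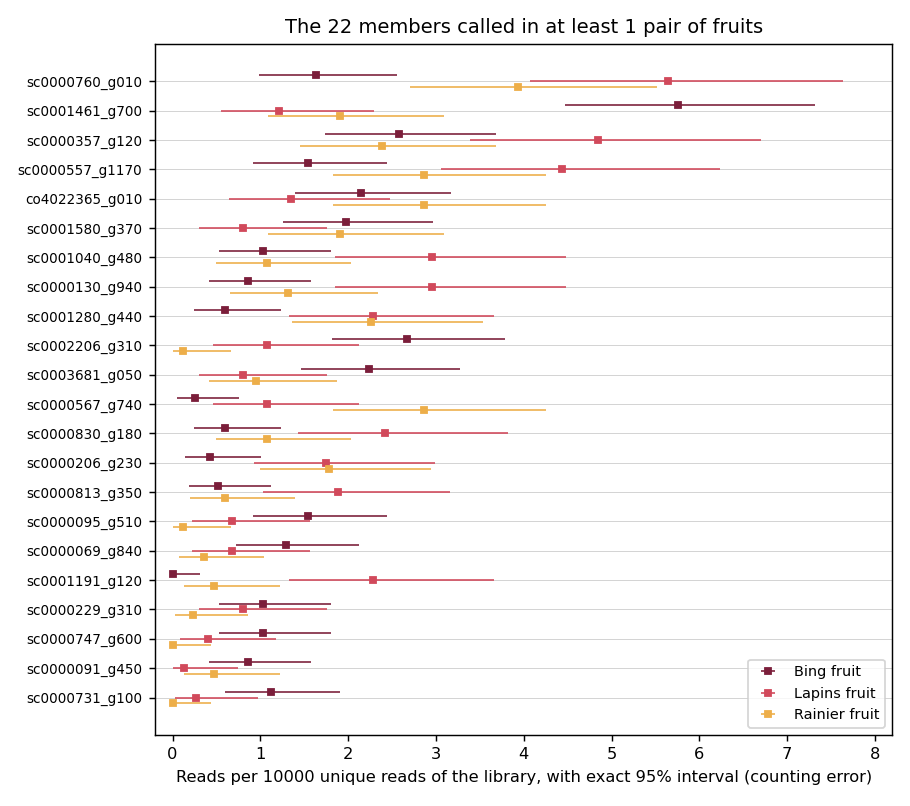
Reads per 10000 unique reads (x axis) in ‘Bing’, ‘Lapins’ and ‘Rainier’ fruit for the 22 of the 95 genes called in at least 1 fruit pair, ordered by fruit reads, with exact 95% intervals as bars that cover counting error only. The interval of ‘Bing’ lies apart from those of both other fruits for Pav_sc0001461.1_g700.1.mk (5.76, 1.21 and 1.91), Pav_sc0000760.1_g010.1.mk (1.63, 5.65 and 3.93) and Pav_sc0001280.1_g440.1.mk (0.602, 2.29 and 2.26), whereas most bars overlap.

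Next, leaf and fruit of a cultivar were taken as its 2 libraries, and cultivars were compared by edgeR (quasi-likelihood test with tissue as a covariate, Benjamini-Hochberg adjusted p under 0.05). This asks for differences shared by both tissues. They are set against the spread that cultivar and tissue leave over, which includes cultivar differences not alike in leaf and fruit. None of the 95 genes was called in any of the 3 contrasts. The background over 2559 genes tested was 0.156% and 0.391% for ‘Bing’ above and below ‘Lapins’, 0.234% and 0.195% for ‘Bing’ above and below ‘Rainier’, and 0.0782% and 0% for ‘Lapins’ above and below ‘Rainier’. At an unadjusted p under 0.05, edgeR gave 4, 5 and 3 of the 95 in the contrasts of ‘Bing’ with ‘Lapins’, ‘Bing’ with ‘Rainier’ and ‘Lapins’ with ‘Rainier’. DESeq2 gave 1, 4 and 2, and likewise no adjusted call. The smallest p belonged to Pav_sc0000095.1_g790.1.mk, with a log2 ratio of ‘Bing’ to ‘Rainier’ of -2.15 and an edgeR adjusted p of 0.181. Pav_sc0001191.1_g120.1.mk was next by p, with a log2 ratio of ‘Lapins’ to ‘Rainier’ of 1.95 and an edgeR adjusted p of 0.922. Pav_sc0000143.1_g500.1.mk followed with log2 ratios of 1.44 over ‘Lapins’ and 1.41 over ‘Rainier’ and edgeR adjusted p of 0.308 and 0.381. The common coefficient of variation was 0.355 in this fit. It holds variation between libraries and cultivar ratios that differ between leaf and fruit, which cannot be told apart here. The fit takes leaf and fruit together and does not test a difference in leaf alone.

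Leaving out a library gave an edgeR call for 3 of the genes. Without the ‘Bing’ leaf, Pav_sc0001191.1_g120.1.mk was called between ‘Bing’ and ‘Lapins’, at a log2 ratio of -7.03 against -1.32 with all libraries. Likewise Pav_sc0000567.1_g740.1.mk was called between ‘Bing’ and ‘Rainier’, at -3.15 against -1.48. ‘Bing’ then stood by its fruit library alone, so these ratios are not differences shared by both tissues. Without the ‘Lapins’ fruit, Pav_sc0001488.1_g320.1.mk was called between ‘Bing’ and ‘Rainier’ (log2 ratio -1.25, adjusted p = 0.0364 by edgeR). In these fits the lone library of a cultivar is assumed to vary like the others.

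Last, a Poisson likelihood ratio test asked whether a cultivar ratio differed between leaf and fruit. It covers counting error only, and its p was adjusted over all genes with a read in each tissue of the pair. The ratio differed for 8 of 94 genes tested between ‘Bing’ and ‘Lapins’ (background 2.33% of 10156 genes, most of them with few reads) and for 8 of 90 between ‘Bing’ and ‘Rainier’ (1.61%), 13 genes in all. Between ‘Lapins’ and ‘Rainier’ it differed for 0 of 91 (0.464%). At an unadjusted p under 0.05 there were 15, against 28 of the 93 genes of like leaf abundance. Of the 93 genes of like leaf abundance, which hold more fruit reads, 30, 19 and 11 were called in the 3 pairs. The calls among the 95 were thus not more frequent than in other abundant leaf genes.

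The leaf and fruit ratios pointed in opposite directions in several of these genes. Pav_sc0000760.1_g010.1.mk had a ‘Bing’ to ‘Lapins’ ratio of 1.16 in leaf and 0.289 in fruit, and a ‘Bing’ to ‘Rainier’ ratio of 1.86 in leaf and 0.416 in fruit (adjusted p = 0.00022 and 0.000318 for the difference). Pav_sc0000731.1_g100.1.br had a ‘Bing’ to ‘Lapins’ ratio of 0.475 in leaf and 4.16 in fruit. Pav_sc0000357.1_g120.1.mk, with 181, 84 and 100 reads in ‘Bing’, ‘Lapins’ and ‘Rainier’ leaf and 30, 36 and 20 in fruit, had a ‘Bing’ to ‘Lapins’ ratio of 1.70 in leaf and 0.533 in fruit. In all 3 genes ‘Bing’ changed sides against ‘Lapins’ between the tissues, though the ratios of 1.16, 1.70 and 0.533 were within a factor of 2. Against ‘Rainier’, Pav_sc0000357.1_g120.1.mk kept its side, with a ‘Bing’ to ‘Rainier’ ratio of 1.43 in leaf and 1.08 in fruit. In Pav_sc0001461.1_g700.1.mk the direction was shared and the size was not, with a ‘Bing’ to ‘Lapins’ ratio of 1.13 in leaf and 4.76 in fruit. Pav_sc0002206.1_g310.1.mk and Pav_sc0000567.1_g740.1.mk were near even between ‘Bing’ and ‘Rainier’ leaf, at ratios of 0.832 and 0.822, and at 22.4 and 0.0903 in fruit.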

How the data were processed

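The authors trimmed the 454 reads of 6 libraries and mapped them to 43673 predicted coding sequences with CLC Genome Workbench 11.0.1. They deposited, per gene and library, whole-number counts of unique and total reads, TPM (not used) and RPKM, scaled by the authors to length and mapped reads, which served for levels between genes. Coding length was recovered from total reads and RPKM. Levels are counts per 10000 unique reads. Unique reads summed to 70058 to 116264 per library. The 95 genes and all lists, rules and tests were chosen with earlier results of these data known. Named genes were those with most leaf reads, extreme ratios, lengths or non-specific reads, consecutive numbers, or the smallest p among calls. The gene with the widest and the one with the narrowest leaf range, the genes of a pattern in leaf and those on the scaffold with most were named after their values were seen.

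Ratios carry exact (Clopper-Pearson) 95% intervals. The Z-test of Kal covered all genes with a read in the pair, and the Poisson test those with a read in both tissues. Fits by edgeR 4.0.16 (TMM, filterByExpr by cultivar) and DESeq2 1.42.0 in R 4.3.3 used the 2559 genes that passed the filter. The Z-test, the Poisson test and edgeR, but not DESeq2, were tried on simulated data. Other steps used Python 3.11.15 with numpy, scipy, pandas and matplotlib. With no replicate per cultivar and tissue, p-values of the edgeR fit rest on the spread that cultivar and tissue leave over, not on replicates. Alternatives covered thresholds, scaling, total reads, Fisher's exact test, DESeq2, filters and leaving out each library.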

Additional observations from a re-analysis of the deposited data

Results flagged for a closer look

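The ‘Bing’ ratio to another cultivar differed between leaf and fruit for 13 genes in 16 comparisons by the Poisson likelihood ratio test, which covers counting error only. Between ‘Bing’ and ‘Lapins’ the adjusted p was 3.76e-05 for Pav_sc0001191.1_g120.1.mk, 0.00022 for Pav_sc0000760.1_g010.1.mk, 0.00135 for Pav_sc0001461.1_g700.1.mk and 0.0041 for Pav_sc0000357.1_g120.1.mk. It was 0.0225 for Pav_sc0001280.1_g440.1.mk, 0.0285 for Pav_sc0000638.1_g720.1.mk, 0.0435 for Pav_sc0000731.1_g100.1.br and 0.0491 for Pav_sc0000257.1_g210.1.mk. The last had 53 and 32 reads in ‘Bing’ and ‘Lapins’ leaf and 0 and 5 in the fruits.

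Between ‘Bing’ and ‘Rainier’ the adjusted p was 1.99e-05 for Pav_sc0000731.1_g100.1.br, 4.3e-05 for Pav_sc0002206.1_g310.1.mk, 0.000318 for Pav_sc0000760.1_g010.1.mk and 0.00522 for Pav_sc0000567.1_g740.1.mk. It was 0.0121 for Pav_sc0000206.1_g230.1.mk, 0.0324 for Pav_sc0001580.1_g270.1.mk, 0.0364 for Pav_sc0000747.1_g600.1.mk and 0.0368 for Pav_sc0001191.1_g120.1.mk. Pav_sc0000747.1_g600.1.mk had 165 and 123 reads in ‘Bing’ and ‘Rainier’ leaf and 12 and 0 in the fruits, at least 2.89-fold higher in ‘Bing’ fruit against a floor of 3 reads, with the exact 95% interval beginning at 2.01. Shared reads touch Pav_sc0002206.1_g310.1.mk (38.4% non-specific) and Pav_sc0000206.1_g230.1.mk (16.4%), and their part in the result was not tested.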

How the results depend on the processing

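The count of 95 genes became 151 with 20 reads required in each leaf and 56 with 50, 107 at a ratio of 3 and 76 at 8, 102 with TMM library sizes and 99 with total reads. Leaving out 1 library gave 93 to 119 genes, of which 88 to 95 were among the 95. In fruit the Z-test called 15 genes between ‘Bing’ and ‘Lapins’, but 8 at an adjusted p and 4 with 10 reads required in both libraries. Between ‘Bing’ and ‘Rainier’ it called 12, but 6 and 2, and between ‘Lapins’ and ‘Rainier’ 8, but 0 and 3. By construction these settings use fewer genes or a stricter threshold. With edgeR the 0 calls became 0 to 1 between ‘Bing’ and ‘Lapins’ and between ‘Bing’ and ‘Rainier’ without 1 library, and 0 to 0 between ‘Lapins’ and ‘Rainier’. The Poisson test called 0 genes between ‘Lapins’ and ‘Rainier’, and 1 with total reads; the cause was not tested. Of the values for single genes under alternatives, 132 kept their side of the threshold, 21 lost it and 0 turned round.

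No replicate block was fitted within a tissue, where each cultivar has 1 library. The edgeR fit already joins leaf and fruit of a cultivar, with tissue as a covariate. Few fruit reads limit every statement on fruit. Trees, sites and libraries of a cultivar cannot be told apart.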
